A study of Mus musculus with 6 samples.

Results

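The 57 genes described here drive or mark the cell cycle and DNA replication: cyclins and cyclin-dependent kinases, their inhibitors and checkpoint kinases, the RB and E2F regulators, the factors that license and fire replication origins, the replication fork, nucleotide supply, and mitosis. A member was every probe whose annotated symbol is one of these genes, which gave 60 probes for 52 genes out of 26423 probes and 17742 named genes. No probe carried the symbol of Ccnb1, Cdk4, Cdc20, Pcna or Tyms, and these 5 genes have no value. The choice of genes used no measured value, although it was made with results of these data known. They were measured in BV2 cells, a mouse microglial line immortalised with a retrovirus that carries the raf and myc oncogenes, so these are continuously dividing cells and not resting microglia of the brain. The 3 groups, each with 2 single-colour arrays, were untreated cells and cells given adenine, a purine that salvage enzymes turn into AMP, for 1 h at a lower or a higher dose. Titles and treatment protocol give those doses as 20 and 80 µM, while the sample characteristics give 80 and 250 µM, so only their order is used. All groups were otherwise grown alike in serum-containing medium, and the groups do not differ in genotype. The submitters describe 2 separate cultures for the untreated cells and separate cultures for treated cells, without saying how the treated cultures map to arrays. Where 2 arrays share a culture, the p-values measure only technical spread.

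In a dividing cell, D-type cyclins with CDK4 and CDK6 phosphorylate RB in G1 and free the E2F factors, which switch on cyclin E, cyclin A, CDK2 and most replication genes. Origins are licensed when ORC, CDC6 and CDT1 load the MCM2-7 helicase onto DNA, and they fire in S phase once CDC45 and GINS join it. Cyclin B with CDK1 then drives mitosis, while CDKN1A (p21), a target of p53, and CDKN1B (p27) hold the kinases back. Microglia seldom divide in the healthy brain and do so after injury.

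Values are intensities in arbitrary units after quantile normalization, a step that gives the 6 arrays the same distribution, and changes are differences of log2 intensity. As deposited, the arrays had median intensities from 125 to 170 units. The higher-dose arrays stood apart: over probes above the median intensity their Pearson correlation with the other 4 arrays was 0.9287 to 0.9406, against 0.9839, 0.9813 and 0.9894 within the control, lower-dose and higher-dose groups. Of the 15 microglia and macrophage markers listed, 12 had a probe and 11 lay above the median probe, all but Cx3cr1. Their summed intensity was 98981 and 105874 units on the control arrays, 108904 and 101819 on the lower-dose arrays, and 162072 and 145850 on the higher-dose arrays, where Aif1, Fcer1g and Itgam were called higher and none lower. The sum rests on its brightest probes: over the 12 markers the median change at the higher dose was 0.11, with 6 values positive and 6 negative, and for 3 of them both higher-dose arrays lay below the controls. None of the astrocyte, neuron, oligodendrocyte, fibroblast, endothelium or lymphocyte markers was called between higher dose and control. Between the doses, 1 endothelium marker was lower and 1 lymphocyte marker higher at the higher dose. The fibroblast markers, 0 of 7 above the median probe, summed to at most 183 units on any array. Oligodendrocyte markers, 6 of 7 above it, summed to 3617 to 4546 units, and endothelium markers, 5 of 8 above it, to 7932 to 9181. Astrocyte, neuron and lymphocyte sums lay between the fibroblast and oligodendrocyte sums. Whether these marker changes had a part in the results below was not tested.

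E2F factors act at the promoters of many of these genes, so the promoter windows of 3 members that were lower at the higher dose are shown, the member with the smallest p in each role group whose window held a match. Windows are the 300 bases from 250 before to 50 after the annotated start, from RefSeq on GRCm38.p6, written 5′ to 3′ along the gene, which lies on the minus strand in all 3 cases. Capitals mark the E2F consensus (TTTCCCGC, TTTCGCGC, TTTGCCGC or TTTGGCGC on either strand) or the cell cycle genes homology region, CHR (TTTGAA or TTCGAA on either strand), an element of late cell cycle promoters. Cdk2 is the S phase kinase, at chr10:128705002-128705301. Mcm6, a subunit of the replicative helicase, is at chr1:128359656-128359955. Cdk1, the mitotic kinase, is at chr10:69352863-69353162.
Cdk2: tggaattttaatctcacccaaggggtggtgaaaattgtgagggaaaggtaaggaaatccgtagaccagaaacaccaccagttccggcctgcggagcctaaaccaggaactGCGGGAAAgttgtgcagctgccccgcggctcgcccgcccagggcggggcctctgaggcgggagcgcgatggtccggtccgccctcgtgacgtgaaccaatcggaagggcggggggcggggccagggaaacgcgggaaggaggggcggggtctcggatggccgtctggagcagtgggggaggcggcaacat
Mcm6: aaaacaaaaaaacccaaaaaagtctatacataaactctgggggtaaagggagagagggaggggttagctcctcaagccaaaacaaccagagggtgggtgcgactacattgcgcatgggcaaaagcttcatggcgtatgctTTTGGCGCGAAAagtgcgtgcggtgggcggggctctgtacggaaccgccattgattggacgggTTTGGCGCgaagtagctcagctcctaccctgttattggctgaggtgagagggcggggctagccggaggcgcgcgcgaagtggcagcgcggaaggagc
Cdk1: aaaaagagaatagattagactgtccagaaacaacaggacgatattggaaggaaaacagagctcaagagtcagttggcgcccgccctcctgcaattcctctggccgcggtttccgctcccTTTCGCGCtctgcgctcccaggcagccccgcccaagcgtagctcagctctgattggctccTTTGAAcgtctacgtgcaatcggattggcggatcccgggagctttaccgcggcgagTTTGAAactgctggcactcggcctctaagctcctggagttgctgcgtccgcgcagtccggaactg
The Cdk2 window held 1 E2F match, starting 140 bases before the start site. In Mcm6 there were 3, of which 2 overlapped at 110 and 106 bases before the start and the last lay at 47 bases before it. The Cdk1 window held 1 E2F match at 131 bases and 2 CHR matches at 71 and 15 bases before the start. Each is a match of letters and no binding was measured here.

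With the higher dose, 5 of the 6 genes of the MCM helicase, the licensing genes Cdt1 and Orc1, and Cdk2 with its cyclins Ccna2 and Ccne2 fell, and the p21 gene Cdkn1a was the member that rose. In the limma fit across all probes, 14 of 52 members passed a Benjamini-Hochberg adjusted p of 0.05, or 26.9%, against 10.6% of all 26423 probes. The 13 lower members (25% of the members, against 5.06% of all probes) were Cdk6, Ccne2, Ccna2, Cdk2, Orc1, Cdt1, Mcm3, Mcm4, Mcm5, Mcm6, Mcm7, Rrm1 and Cdk1. The 1 higher member, Cdkn1a, was 1.92% of the members, against 5.55% of all probes. Members are bright, with 48 of 52 above the median probe, and among all probes above the median 17% were called, 9.17% higher and 7.8% lower.

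The median change over the 52 members was −0.45, against −0.01 over all probes, and ranged from −1.36 for Ccne2 to 0.85 for Cdkn1a, with 36 values negative and 16 positive. At an unadjusted p under 0.05 there were 33 members, where all probes gave 29.1% and the 13211 probes above the median intensity gave 5478. The arrays of the groups did not overlap for 46 members, 33 lower and 13 higher, or 88.5% of the members, against 60.1% of all probes (31.3% lower and 28.8% higher). Among the 13211 probes above the median intensity, which most members resemble in brightness, 5243 were apart lower and 4492 higher. Relative to the control mean, the members' median was −0.02 and 0.02 on the control arrays, 0.12 and 0.18 on the lower-dose arrays, and −0.47 and −0.38 on the higher-dose arrays. In RNA from a whole culture, fewer cells in S phase and less RNA of these genes per cell cannot be told apart.

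**Figure D1:**
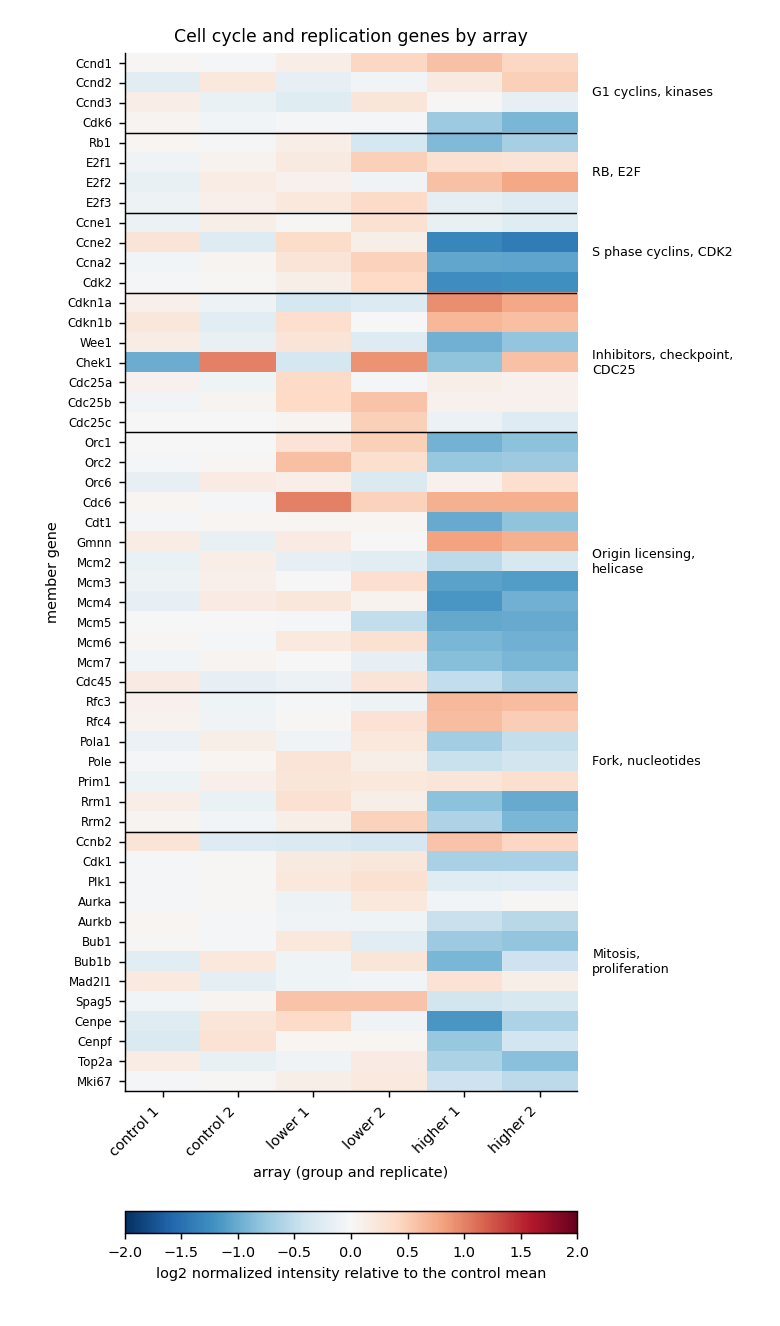
Heat map of log2 normalized intensity relative to the control mean for the 52 member genes (rows, by role) on the 6 arrays (columns). Both higher-dose arrays are below the controls for 33 members and above them for 13, and the members' median there is −0.47 and −0.38.

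Precision was limited by having 2 arrays in each group. Without normalization 5 of 52 members were called, Gmnn and Cdkn1a higher and Rrm1, Cdk2 and Ccne2 lower. Of all 26423 probes 2138 were called there, so the members' share was near that of all probes. With dim probes left out of the fit, 31 of the 48 members kept were called, where 5524 of all 13211 probes kept were. Leaving out 1 array leaves a group with 1 array, and most or all of the calls were then lost. That held also for a lower-dose array, which leaves control and higher dose with 2 arrays each. With only these 2 groups fitted, 5 members were called: Mcm6, Mcm5, Ccna2, Mcm3 and Cdk2. Most of the 14 calls thus drew on the lower-dose arrays, which share in the estimate of the spread. The members' median change at the higher dose was −0.48 without control replicate 1 and −0.34 without control replicate 2. Changes of Cdk2, Ccna2, Mcm3, Cdt1, Rrm1 and Cdkn1a kept their sign in these fits. Since their higher-dose and control arrays did not overlap, the sign could hardly have changed, so this is no support.

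The G1 cyclins and their kinase were mixed: of 4 measured genes, 1 fell (25%, a share of 1 gene, against 5.06% of all probes) and 0 rose, with a median of 0.13. Cdk6, the partner kinase of the D cyclins, read 678 and 635 units on the control arrays, 641 and 636 at the lower dose, and 397 and 350 at the higher dose. Both higher-dose arrays lay below the other 4, and Cdk6 fell 1.76-fold (log2 −0.82 ± 0.15 SE, limma adjusted p = 0.0367). Ccnd1, the cyclin D1 gene that growth factors induce, read 5053 and 4916 units in controls, 5465 and 6649 at the lower dose, and 7517 and 6649 at the higher dose. Both treated groups lay above the controls, with a log2 difference of 0.50 ± 0.17 at the higher dose that did not pass the test (limma adjusted p = 0.131). For Ccnd2, the cyclin D2 gene, 2 probes disagreed in sign, at 0.33 ± 0.21 on the brighter (limma adjusted p = 0.377) and −0.75 ± 0.18 on the other (limma adjusted p = 0.059), so no direction is given. Ccnd3, for cyclin D3, had a difference of −0.06 ± 0.23 with overlapping groups.

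None of the 4 RB and E2F genes passed the test, and their median was 0.03. Rb1, the retinoblastoma gene that restrains E2F, read 721 and 681 units in controls, 770 and 548 at the lower dose, and 381 and 443 at the higher dose. The higher-dose arrays were the lowest of the 6, at a log2 difference of −0.77 ± 0.22 (limma adjusted p = 0.087). E2f1, an activator of S phase genes, read 2606 and 2860 units in controls, 3088 and 3787 at the lower dose, and 3388 and 3274 at the higher dose. All 4 treated arrays lay above both controls, by 0.29 ± 0.17 at the higher dose (limma adjusted p = 0.341). E2f2, a further activator E2F, read 585 and 714 units in controls, 683 and 618 at the lower dose, and 974 and 1105 at the higher dose, where the difference was 0.68 ± 0.18 (limma adjusted p = 0.0746). The higher-dose arrays of E2f2 were above the other 4, and those of E2f3 were below them, with a difference from control of −0.22. The activator E2F genes thus had values on both sides of 0, and none was called.

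Of the S phase cyclins and CDK2, 3 of 4 fell (75%, against 5.06% of all probes and 7.8% of brighter ones) and 0 rose. Their median was −1.14, the lowest of the role groups. Cdk2 read 4364 and 4545 units in controls, 4853 and 5881 at the lower dose, and 1892 and 1893 at the higher dose. The higher-dose arrays were far below the rest, a 2.35-fold fall (log2 −1.23 ± 0.16, limma adjusted p = 0.0216). A second Cdk2 probe gave −1.54 ± 0.17 (limma adjusted p = 0.0199), so both probes of the gene were called lower. Ccna2, for cyclin A2, the CDK2 partner in S phase, read 10284 and 11150 units in controls, 12856 and 14783 at the lower dose, and 5192 and 5140 at the higher dose. Here the lower-dose arrays were the highest and the higher-dose arrays the lowest, and against control the gene fell 2.07-fold (log2 −1.05 ± 0.16, limma adjusted p = 0.0252). Ccne2, a cyclin E gene acting at S phase entry, read 1831 and 1288 units in controls, 1982 and 1662 at the lower dose, and 620 and 582 at the higher dose. The control and lower-dose arrays overlapped, the higher-dose arrays lay below them, and the fall was 2.56-fold (log2 −1.36 ± 0.23, limma adjusted p = 0.0296). A second, dimmer Ccne2 probe had −0.14 ± 0.17 and was not called (limma adjusted p = 0.638), and with the mean of its probes Ccne2 was at −0.75 and not called (limma adjusted p = 0.0615, in a range of 0.00036 to 0.147 over the alternatives tried). The sister gene Ccne1 read 5435 and 6440 units in controls and 5323 and 4982 at the higher dose. Its difference was −0.20 ± 0.18 and was not called (limma adjusted p = 0.53).

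**Figure D2:**
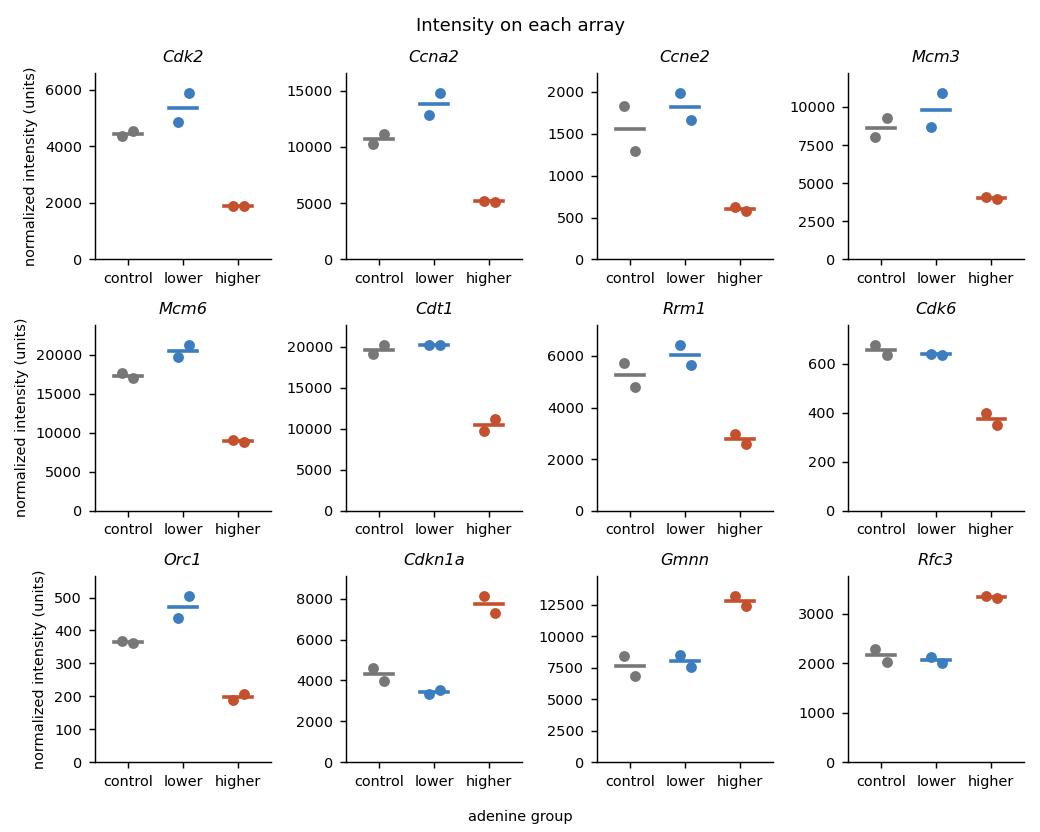
Normalized intensity (linear axis from 0, units) of 12 member genes on each array, grouped as control, lower and higher adenine dose, with points for arrays and lines for group means. Cdk2 lies at 1892 and 1893 units at the higher dose against 4364 and 4545 in controls, while Cdkn1a, Gmnn and Rfc3 lie above their controls.

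Among the CDK inhibitors, checkpoint kinases and CDC25 phosphatases, 1 of 7 rose (14.3%, a share of 1 gene, against 5.55% of all probes) and 0 fell, with a median of 0.08. Cdkn1a, which encodes the inhibitor p21, read 4601 and 3988 units in controls, 3358 and 3541 at the lower dose, and 8144 and 7310 at the higher dose. The lower-dose arrays were below the controls and the higher-dose arrays above them, a 1.80-fold rise at the higher dose (log2 0.85 ± 0.16, limma adjusted p = 0.0384). Cdkn1b, for the inhibitor p27, read 298 and 216 units in controls and 402 and 386 at the higher dose, a difference of 0.63 ± 0.23 that was not called (limma adjusted p = 0.142). Wee1, a kinase that holds CDK1 and CDK2 inactive, read 690 and 567 units in controls, 751 and 522 at the lower dose, and 323 and 362 at the higher dose. The higher-dose arrays of Wee1 were below all others, at −0.87 ± 0.24 (limma adjusted p = 0.0798). The phosphatase genes that oppose it, Cdc25a, Cdc25b and Cdc25c, differed from control by 0.10, 0.08 and −0.19 at the higher dose, none called. Chek1, the replication checkpoint kinase, read only 7 to 28 units over the 6 arrays, too dim to compare (log2 −0.11 ± 0.88).

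Origin licensing and the helicase held the most called members: 7 of 13 fell (53.8%, against 5.06% of all probes and 7.8% of brighter ones), 0 rose, and the median was −0.88. Of the MCM2-7 ring, Mcm3, Mcm4, Mcm5, Mcm6 and Mcm7 fell. Mcm3 read 8039 and 9262 units in controls, 8672 and 10905 at the lower dose, and 4126 and 3980 at the higher dose, a 2.13-fold fall (log2 −1.09 ± 0.18, limma adjusted p = 0.0304). Mcm4 read 14329 and 18045 units in controls, 18863 and 16825 at the lower dose, and 7166 and 8244 at the higher dose, a 2.09-fold fall (log2 −1.06 ± 0.19, limma adjusted p = 0.0337). On both probes the higher-dose arrays were the lowest and the other groups overlapped. Mcm5 read 16449 and 16141 units in controls, 15892 and 11556 at the lower dose, and 7998 and 8123 at the higher dose, a 2.02-fold fall (log2 −1.02 ± 0.20, limma adjusted p = 0.0405). Mcm6 read 17588 and 16974 units in controls, 19735 and 21292 at the lower dose, and 9122 and 8851 at the higher dose, a 1.92-fold fall (log2 −0.94 ± 0.14, limma adjusted p = 0.0261). Mcm5 was below its controls on both lower-dose arrays, while Mcm6 was above them on both. Mcm7 read 14388 and 15427 units in controls, 14823 and 13327 at the lower dose, and 8237 and 7941 at the higher dose, a 1.84-fold fall (log2 −0.88 ± 0.15, limma adjusted p = 0.0311). The remaining ring subunit, Mcm2, read 2335 and 2794 units in controls and 1779 and 2042 at the higher dose. Its arrays were also apart, with a difference of −0.42 ± 0.17 that was not called (limma adjusted p = 0.186).

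Of the genes that load the ring, Cdt1 and Orc1 fell. Cdt1, which brings the helicase to ORC, read 19103 and 20254 units in controls, 20218 and 20295 at the lower dose, and 9776 and 11214 at the higher dose. The control and lower-dose arrays overlapped, and the higher-dose arrays showed a 1.88-fold fall (log2 −0.91 ± 0.15, limma adjusted p = 0.0304). Gmnn, for geminin, the protein that inhibits CDT1, read 8414 and 6811 units in controls, 8515 and 7578 at the lower dose, and 13218 and 12443 at the higher dose. Geminin RNA was thus highest on the higher-dose arrays, by 0.76 ± 0.18, and did not pass the test (limma adjusted p = 0.0582). Orc1, the largest subunit of the origin recognition complex, read 368 and 361 units in controls, 439 and 505 at the lower dose, and 189 and 207 at the higher dose. All 3 groups of Orc1 arrays were apart, and at the higher dose it fell 1.84-fold (log2 −0.88 ± 0.16, limma adjusted p = 0.0338). Orc2, another subunit, read 2952 and 3022 units in controls, 4513 and 3741 at the lower dose, and 1761 and 1796 at the higher dose. It showed the same order of groups and missed the threshold against control (log2 −0.75 ± 0.16, limma adjusted p = 0.05002), while its second, dimmer probe had 0.06 ± 0.20 with overlapping arrays. Orc6, a small ORC subunit, had 0.21 with overlapping groups. Cdc6, the ATPase that loads the helicase with CDT1, was dim at 23 and 22 units in controls and 37 and 37 at the higher dose (log2 0.70 ± 0.22, limma adjusted p = 0.112). Cdc45, which activates the loaded ring, had −0.59 ± 0.21 (limma adjusted p = 0.144).

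At the replication fork and in nucleotide supply, 1 of 7 measured genes fell (14.3%, a share of 1 gene, against 5.06% of all probes) and 0 rose, with a median of −0.41. Rrm1, the large subunit of ribonucleotide reductase, which makes deoxyribonucleotides, read 5714 and 4799 units in controls, 6440 and 5653 at the lower dose, and 2960 and 2604 at the higher dose. The higher-dose arrays were the lowest and Rrm1 fell 1.89-fold (log2 −0.92 ± 0.18, limma adjusted p = 0.0402). A second Rrm1 probe had −0.82 ± 0.21 and was not called (limma adjusted p = 0.0706). Rrm2, the small subunit whose level follows S phase, read 11817 and 11010 units in controls, 12357 and 15749 at the lower dose, and 7415 and 6039 at the higher dose. Its higher-dose arrays were also the lowest, at −0.77 ± 0.20, not called (limma adjusted p = 0.0735). Rfc3, a subunit of the clamp loader that places PCNA on DNA, read 2292 and 2025 units in controls, 2127 and 1998 at the lower dose, and 3360 and 3314 at the higher dose. It lay on the other side, above the rest by 0.63 ± 0.15 (limma adjusted p = 0.0621), and Rfc4 of the same complex had 0.55 ± 0.17 (limma adjusted p = 0.106). The catalytic polymerase genes Pola1 and Pole, for polymerases alpha and epsilon, had −0.59 and −0.41, and the primase gene Prim1 had 0.28, none called.

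Of the mitosis and proliferation genes, 1 of 13 measured fell and 0 rose, and the median was −0.50. That is 7.69% lower, near the 5.06% of all probes and the 7.8% of brighter probes called lower. Cdk1 read 103 and 106 units in controls, 118 and 122 at the lower dose, and 67 and 67 at the higher dose. All 3 groups were apart on this dim probe, with a 1.57-fold fall at the higher dose (log2 −0.65 ± 0.14, limma adjusted p = 0.0499). Its partner Ccnb2, for cyclin B2, read 5188 and 3600 units in controls and 6420 and 5777 at the higher dose. Its arrays were apart in the other direction, at 0.49 ± 0.22, not called (limma adjusted p = 0.215). Bub1, a spindle checkpoint kinase, read 5606 and 5465 units in controls, 6393 and 4735 at the lower dose, and 3341 and 3187 at the higher dose, or −0.76 ± 0.19 (limma adjusted p = 0.0697). Mki67, for the proliferation antigen Ki-67, read 7700 and 7923 units in controls, 8503 and 8922 at the lower dose, and 5846 and 5443 at the higher dose. Its higher-dose arrays were the lowest, at −0.47 ± 0.14 (limma adjusted p = 0.104). Spag5, for the spindle protein astrin, read 3363 and 3606 units in controls, 5172 and 5166 at the lower dose, and 2695 and 2802 at the higher dose, so the lower-dose arrays stood highest and the difference from control at the higher dose was −0.34 ± 0.14 (limma adjusted p = 0.194). Top2a, the topoisomerase that untangles chromosomes, had −0.73 ± 0.19 and Cenpe, a kinetochore motor, −0.90 ± 0.30, neither called. Bub1b and Mad2l1 of the spindle checkpoint had −0.66 and 0.21. The mitotic kinase genes Plk1, Aurka and Aurkb had −0.23, −0.02 and −0.50, and the kinetochore gene Cenpf, dim at 84 to 173 units, had −0.57. None of these was called.

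**Figure D3:**
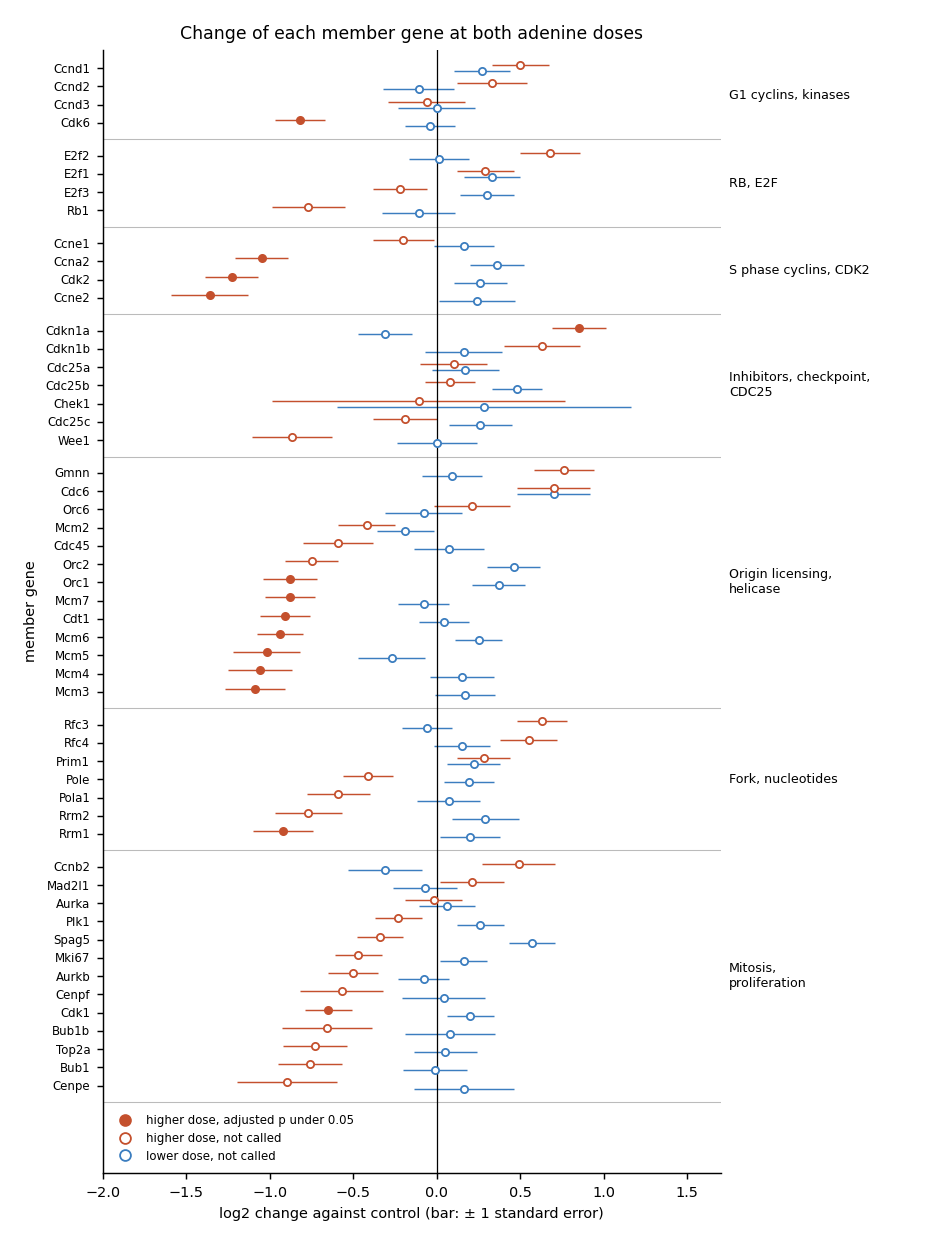
Log2 change against control with its standard error for each of the 52 members (vertical axis) at the higher and the lower adenine dose, filled where the limma adjusted p is under 0.05. The 13 lower members at the higher dose lie between −1.36 and −0.65, Cdkn1a lies at 0.85, and no lower-dose value is filled.

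At the lower dose, no member was called against control in the limma fit, where 3 of all 26423 probes were, or 0.0114%. At an unadjusted p under 0.05 there were 4 of 52 members, Cdc25b, Orc2, Cdc6 and Spag5, all above control. All probes gave 6.36%, and the 13211 probes above the median intensity gave 558. A count of 4 genes is too small to set the members apart. The differences of these 4 genes were 0.48 ± 0.15, 0.46 ± 0.16, 0.70 ± 0.22 and 0.57 ± 0.14, each with a limma adjusted p of 0.764. Cdc6 was dim, at 22 to 45 units, and the second Orc2 probe had 0.30 ± 0.20 (limma adjusted p = 0.79). The members' median was 0.15, against 0.00 over all probes, with 38 values positive and 14 negative. Arrays did not overlap for 23 members, or 44.2%, against 35% of all probes, 18 of them higher (34.6%, against 18.5%) and 5 lower (9.62%, against 16.6%). Cdkn1a was among those below control, at −0.31 ± 0.16 (limma adjusted p = 0.769), and Ccna2 among those above, at 0.36 ± 0.16 (limma adjusted p = 0.764). As deposited, without normalization, the median over all probes at the lower dose was 0.22, and the members' median relative to it was 0.07. Both doses are set against the same 2 control arrays, so their changes are not independent.

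Between the doses, more members were called than against control: 18 of 52, or 34.6%, against 13.7% of all probes and 21.9% of probes above the median intensity. Of these, 16 were lower at the higher dose (30.8%, against 6.95%) and 2 were higher (3.85%, against 6.78%). Of the 13211 probes above the median intensity, 1421 were called lower and 1473 higher. This comparison uses the same higher-dose arrays as the one above, and its median over the members was −0.61, with 40 values negative and 12 positive. At an unadjusted p under 0.05 there were 35 members, where all probes gave 32.1% and the 13211 brighter ones gave 5992. Arrays were apart for 44 members (84.6%, against 59.2%), 34 lower (65.4%, against 30.7%) and 10 higher (19.2%, against 28.5%). Among the 13211 brighter probes, 5126 were apart lower and 4540 higher. Ccne2 was 3.02-fold lower (log2 −1.60 ± 0.23, limma adjusted p = 0.0218), Cdk2 2.82-fold lower (log2 −1.50 ± 0.16, limma adjusted p = 0.018) and Ccna2 2.67-fold lower (log2 −1.42 ± 0.16, limma adjusted p = 0.018). Of the licensing genes, Orc1 was 2.38-fold lower, Orc2 2.31-fold lower, Mcm3 2.40-fold lower and Mcm6 2.28-fold lower, with limma adjusted p from 0.0185 to 0.0225. The second Orc2 probe had −0.25 with overlapping arrays (limma adjusted p = 0.462), and with the mean of its probes Orc2 was at −0.73 and not called (limma adjusted p = 0.0532, in a range of 0.000239 to 0.119 over the alternatives tried). The second Ccne2 probe had −0.51 and was not called (limma adjusted p = 0.114). Rrm1 was 2.17-fold lower and Rrm2 2.08-fold lower (limma adjusted p = 0.025 and 0.0337). Spag5 was 1.88-fold lower, Cdk1 1.80-fold lower and Mki67 1.54-fold lower (limma adjusted p = 0.0244, 0.0265 and 0.0498). The second probes of Rrm1 and Mki67 had −0.70 and −0.71, and neither was called (limma adjusted p = 0.0875 and 0.0617). Cdkn1a was 2.24-fold higher (log2 1.16 ± 0.16, limma adjusted p = 0.0212) and Rfc3 1.62-fold higher (log2 0.69 ± 0.15, limma adjusted p = 0.0447). Mcm5, called against control, had −0.75 ± 0.20 here and was not called (limma adjusted p = 0.0672). Leaving out any 1 of the 6 arrays left 0 members called between the doses, and as deposited 1127 probes were higher and 2965 lower, where the normalized arrays gave 1792 and 1837.

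Genes of the same pathways outside the 57 moved in both directions at the higher dose. Of 40 other replication genes, 3 rose (7.5%, against 5.55% of all probes and 9.17% of brighter ones) and 7 fell (17.5%, against 5.06% and 7.8%), with a median of −0.29. Lig1, the ligase that joins Okazaki fragments, read 17444 and 15553 units in controls, 15330 and 15314 at the lower dose, and 7151 and 6215 at the higher dose. Its higher-dose arrays were the lowest (log2 −1.31 ± 0.16, limma adjusted p = 0.0204). Gins2, a subunit of the GINS complex that joins the helicase, read 1349 and 1619 units in controls, 1750 and 1967 at the lower dose, and 3560 and 3737 at the higher dose (log2 1.30 ± 0.17, limma adjusted p = 0.0213). Rpa3, the small subunit of the single-strand binding protein, read 1897 and 2049 units in controls, 2775 and 3135 at the lower dose, and 4839 and 4180 at the higher dose (log2 1.19 ± 0.17, limma adjusted p = 0.0233). For Gins2 and Rpa3 all 3 groups were apart, with the controls lowest and the higher dose highest.

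Of 61 other mitosis genes, 5 rose (8.2%, near the 5.55% of all probes and 9.17% of brighter ones) and 10 fell (16.4%, against 5.06% and 7.8%), with a median of −0.37. Pttg1, for securin, which restrains chromatid separation, read 4419 and 3561 units in controls, 4316 and 4425 at the lower dose, and 10366 and 10386 at the higher dose (log2 1.39 ± 0.17, limma adjusted p = 0.0204). Cks2, a small subunit that binds CDKs, read 219 and 221 units in controls, 271 and 368 at the lower dose, and 619 and 724 at the higher dose (log2 1.60 ± 0.21, limma adjusted p = 0.0207). Spc24, of the NDC80 kinetochore complex, read 784 and 925 units in controls, 1198 and 968 at the lower dose, and 2037 and 2327 at the higher dose (log2 1.35 ± 0.19, limma adjusted p = 0.0240). In each of Pttg1, Cks2 and Spc24 the higher-dose arrays were the highest. These genes are shown for having the smallest p of the list, and none of the 10 that fell is among them.

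Of 21 other G1, RB and E2F genes, 2 rose and 2 fell, with a median of −0.18. The 19% called were close to the 17% of brighter probes called in either direction, so the count does not set these genes apart. Lin52, of the MuvB complex that binds cell cycle promoters, read 439 and 440 units in controls, 433 and 323 at the lower dose, and 149 and 144 at the higher dose (log2 −1.58 ± 0.19, limma adjusted p = 0.0204). Fbxw7, which targets cyclin E for degradation, read 568 and 626 units in controls, 627 and 584 at the lower dose, and 223 and 292 at the higher dose (log2 −1.22 ± 0.19, limma adjusted p = 0.0271). Both genes were lowest on the higher-dose arrays. The CDK4 and CDK6 inhibitor gene Cdkn2b read 50 and 60 units in controls, 60 and 59 at the lower dose, and 110 and 136 at the higher dose, where it was highest (log2 1.16 ± 0.19, limma adjusted p = 0.0276). Its neighbour Cdkn2a, named here after its values were seen, rose by 1.41 ± 0.22 on the log2 scale.

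Of 29 p53 and DNA damage genes, 2 rose and 3 fell, with a median of −0.42. The 17.2% called were at the 17% of brighter probes. Pmaip1, the p53 target that encodes NOXA, read 6440 and 6760 units in controls, 7200 and 8320 at the lower dose, and 2078 and 1845 at the higher dose. Its higher-dose arrays were the lowest, a fall (log2 −1.75 ± 0.16, limma adjusted p = 0.0186). Cdkn1a, also a p53 target, rose, and whether p53 had a part in either change was not tested. Trp53bp1, a DNA break adaptor, read 2101 and 1601 units in controls, 1670 and 2236 at the lower dose, and 5229 and 4617 at the higher dose (log2 1.42 ± 0.23, limma adjusted p = 0.0288). Ccng2, a cyclin-like gene, read 3605 and 2726 units in controls, 3221 and 3036 at the lower dose, and 1570 and 1413 at the higher dose (log2 −1.07 ± 0.19, limma adjusted p = 0.0345). In both, the control and lower-dose arrays overlapped and the higher-dose arrays stood apart. No gene of these 4 lists was called at the lower dose in the limma fit. At an unadjusted p under 0.05 there were 7 of 151, or 4.64%, no more than the 6.36% of all probes. The 13211 probes above the median intensity gave 558.

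Changes at the higher dose varied with the length of the gene, so the members' spans were examined. Over 10267 named genes above the median intensity, the change and the span from start to end in the annotation had a Spearman rho of −0.326, a description, since genes are not independent replicates. The members' rho was −0.218, and their median span was 17.6 kb, with 17.3 kb for the 13 lower members and 18.3 kb for the 38 members not called, against 21.5 kb over those genes. After each array's trend with span was removed, the members' median was −0.33 and 10 of 52 members were called, all lower. In that fit, 1038 of all 26423 probes were called lower and 1337 higher. Of these, 8 were among the 14 above: Cdt1, Mcm3, Mcm4, Mcm6, Mcm7, Ccna2, Cdk2 and Ccne2. Cdkn1a was then at 0.75 (limma adjusted p = 0.0506) and Mcm5 at −0.94 (limma adjusted p = 0.0507), Cdk6, Orc1, Rrm1 and Cdk1 also missed the threshold, and Rrm2 passed it at −0.99 (limma adjusted p = 0.0442). Aurkb, named here after its values were seen, was the other gene added. Over the alternatives tried, the adjusted p of Cdkn1a ran from 0.00206 to 0.19, that of Mcm5 from 0.0013 to 0.181 and that of Rrm2 from 0.00646 to 0.27.

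**Figure D4:**
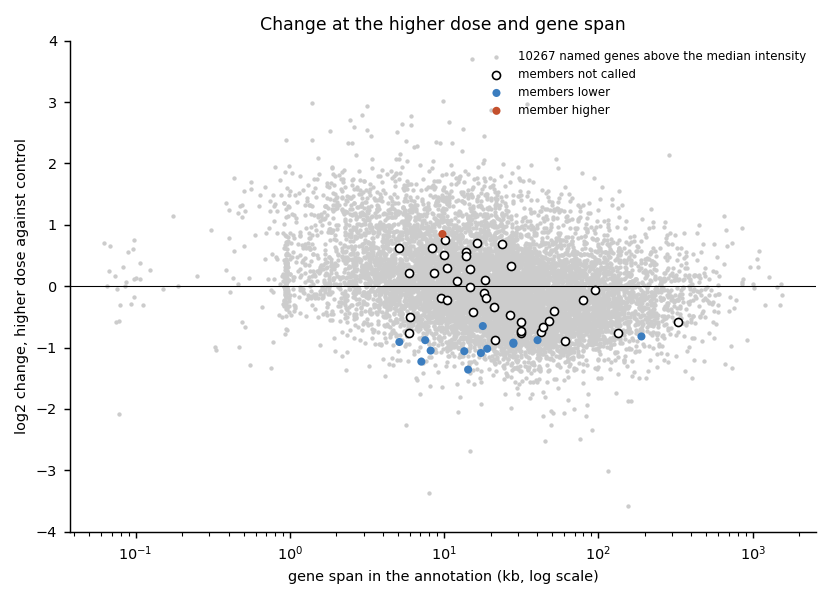
Log2 change at the higher dose against gene span (kb, log scale) for 10267 named genes above the median intensity (grey; 4 lie beyond the axis) and the member genes, coloured by call. The 13 lower members have a median span of 17.3 kb, and the change over all grey genes has a Spearman rho of −0.326 with span.

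Promoter windows were held for 41 of the 52 measured members. The E2F consensus matched in 14 of them, or 34.1%, against 704 of 27025 genes, or 2.6%. Among the members that fell it matched in 8 of 10 with a window, or 80%: Cdk2, Cdk1, Cdt1, Mcm3, Mcm5, Mcm6, Mcm7 and Orc1. Among those not called it matched in 6 of 30, or 20%: Cdc25a, E2f2, E2f3, Cdc6, Pola1 and Rfc3. Ccne2, Ccna2 and Mcm4 also fell and have no window. The split by call hangs on the threshold. Cdk1, with a match, passed it (limma adjusted p = 0.0499), and Orc2, without a match, missed it (limma adjusted p = 0.05002). The median change was −0.76 over the 14 genes with a match, from −1.23 for Cdk2 to 0.70 for Cdc6, and −0.23 over the 27 without, from −0.92 for Rrm1 to 0.85 for Cdkn1a. Values were negative for 10 of the 14 with a match and for 18 of the 27 without. Cdt1, Orc1, Cdc6 and the Mcm genes with a match share the licensing role, so match and role cannot be told apart. CHR letters matched in 17 of 41 members, or 41.5%, against 21.7% of genes, and in 2 of the 10 lower members and 15 of the 30 not called. The median change was −0.42 over the 17 genes with a CHR match and −0.40 over the 24 without. CCAAT, the box bound by NF-Y, matched in 32 of 41, or 78%, against 41.1% of genes. These are descriptions of letters in a window, with no test.

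**Figure D5:**
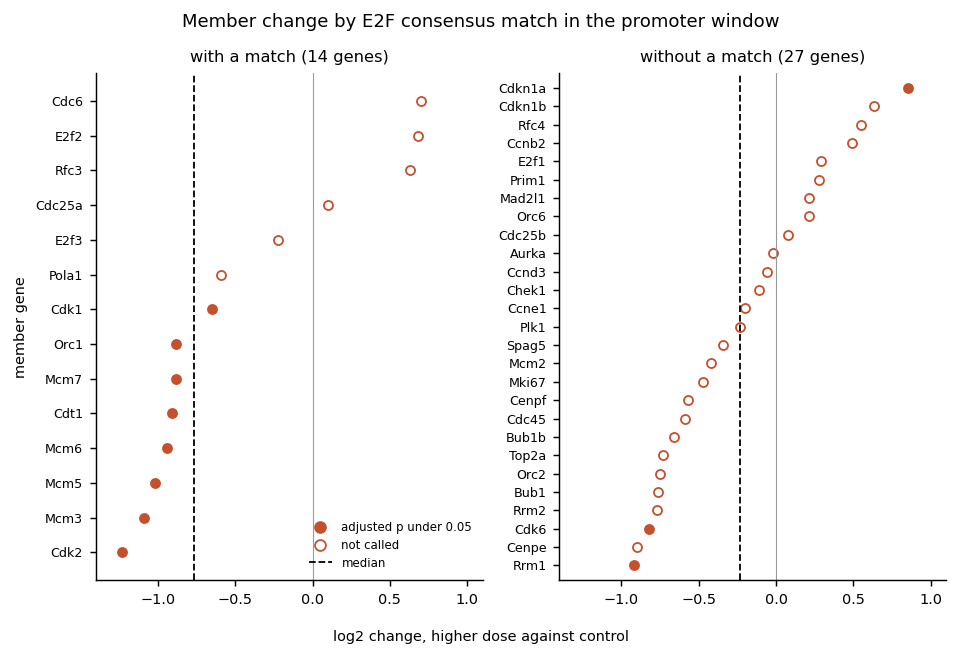
Log2 change at the higher dose (horizontal axis) of the 41 members with a promoter window, split into 14 genes with and 27 genes without an E2F consensus match, filled where the limma adjusted p is under 0.05. Dashed lines mark the medians, −0.76 and −0.23.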

How the data were processed

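RNA labelled with Cy5 was read on Phalanx mouse OneArray arrays of 1 colour, per the labels' protocols. The authors deposited linear spot intensity, from −21 to 65489. The submitters' processing notes name RMA, which gives log values with equal distributions, but the deposited intensity values are linear with unequal medians, so they were treated as not normalized. Arrays were quantile-normalized, values under 1 set to 1 (196 to 315 probes an array as deposited) and log2 taken. Each group had its own mean in 1 limma fit of all 26423 probes and 6 arrays (lmFit, eBayes; limma version 3.58.1, R version 4.3.3), which leaves 3 residual degrees of freedom. Tests were two-sided and p-values were adjusted by Benjamini-Hochberg over all probes, with a threshold of 0.05. Errors are standard errors from this fit.

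The platform annotation, which can be old, named 20377 probes and left 6046 unnamed. Symbols were updated through RefSeq GRCm38.p6 by exact match (18213) or synonym (2126), and 38 were kept. A gene's brightest probe stood for it. Values on every array are given for members past the threshold in any comparison, the 2 with the smallest p in each role group, Ccnd1, E2f1, Rb1 and Mki67, and the 3 other genes with the smallest p in each list. Some further members are given for comparison. The members and lists were chosen with earlier results of these data known. Whether replicate numbers in the titles pair arrays is not settled. Correlations of same-numbered arrays' deviations were 0.0326 for control and lower dose, 0.313 for control and higher dose, and −0.226 for lower and higher dose. A run on simulated data with normal noise checked only that the fit recovers set log2 changes on average. It does not bear on which probes were called here. Python 3.11.15 and matplotlib 3.10.9 drew the figures. Alternatives were other normalizations, a filter on dim probes, another pseudocount, a replicate block, a trended prior, 2 groups at a time, 1 array left out, the mean of a gene's probes, removal of the trend with gene span, and a looser threshold. Neither scanner nor background method is given in the sources used here.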

Additional observations from a re-analysis of the deposited data

How the results depend on the processing

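Precision is limited by 2 arrays a group. Detection flags were not used here, so dim members (Chek1, Cdc6, Cdk1, Cenpf) carry no statement on background. The 14 members called at the higher dose became 5 as deposited, 31 with only probes above the median intensity, 24 with log2(value + 16), 28 with a trended prior, 5 with only the 2 groups compared and 24 at an adjusted p of 0.1, and 0 to 5 with 1 array left out. With the replicate number as a block, 0 members and 11 probes were called at the higher dose. Between the doses the block fit called 9 members and 1395 probes, and at the lower dose 0 probes.

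Of all probes, 2803 were called at the higher dose, and 5524, 4764, 5000, 1584 and 5262 with brighter probes only, log2(value + 16), a trended prior, 2 groups and the looser threshold, or 6 to 1589 with 1 array left out. Between the doses, 18 members and 3629 probes became 33 and 6163, 29 and 5645, 33 and 5762, 0 and 7, and 30 and 6425 under the same settings, and 0 members and 6 to 26 probes with 1 array left out. The 3 probes called at the lower dose became 0 with equal medians or 2 groups, 1 with brighter probes, and 0 to 9 with 1 array left out.

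The licensing median of −0.88 was −0.66 as deposited and −0.67 with the span trend removed. The fork median of −0.41 was −0.58 with equal medians and −0.18 with the span trend removed, and that of other mitosis genes, −0.37, was −0.21. With the mean of all probes, the G1 median of 0.13 was −0.10 and the S phase median of −1.14 was −0.90. E2f1 between the doses, −0.04, ranged from −0.19 to 0.11 with 1 array left out, the latter without lower dose replicate 2. The members' median at the higher dose stayed between −0.51 and −0.33 under the alternatives run. Where no value above shows it, the cause of a change was not tested.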
